A study of Drosophila melanogaster with 35 samples.

Results

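Of 15473 transcripts measured in dissected Drosophila wings, 32 were raised at both pupal stages in wings overexpressing Cabut while staying near the control level in wings overexpressing dE2F1 with dDP. They were selected on the measured pupal levels themselves. A transcript was kept if its mean log2 level in Cabut wings exceeded that in control wings by at least 1 (a 2-fold rise) at 24h and again at 36h after pupa formation, and if its mean in dE2F1+dDP wings lay within 0.5 (1.41-fold) of control at both times. The pupal differences are therefore described and not tested. The larval arrays played no part in the choice, and the tests below use them.

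Cabut is a zinc finger transcription factor of the Krüppel-like family, related to the vertebrate TIEG proteins, and is known in flies for roles in epithelial closure downstream of JNK signalling and in the transcriptional response to dietary sugar. E2F1 and DP form a pair that activates genes of DNA replication and the cell cycle. Cells of the fly wing stop dividing early in pupal life and then form hairs and cuticle. The stages measured here, from larva to pupa, therefore span the passage from proliferation to differentiation.

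Total RNA was taken from pools of 10 wings at the wandering stage of the last larval instar (L3), at 24h and at 36h. The Cabut line (Cbt in the sample names) carried UAS-Cabut, the line named dE2F1+dDP (E2F1DP below) carried UAS-dE2F1 with a UAS transgene for dDP, and the control carried no further transgene. Animals of all 3 lines had apterous-gal4, which is active in dorsal wing cells only, together with UAS-GFP and tubulin-Gal80temp.sens., a temperature-sensitive repressor of Gal4, were grown at 18 °C and were shifted to 28 °C for induction, so a whole wing mixes cells in which the driver is active with cells in which it is not. Each group had 4 arrays, other than E2F1DP at L3 with 3, and the replicates are described as independent samples. More cells of a type and more RNA per cell cannot be told apart in such samples.

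Levels are log2 values of RMA intensities, the authors' background-corrected and normalised array signal per transcript. Over the 35 arrays the median level lay between 9.25 and 10.02. Control replicate 3 and E2F1DP replicate 3 of 24h had the lowest medians (9.28 and 9.25) and the lowest correlations with the other arrays of their groups (0.9661 and 0.9638). Slides were told apart by a code in the deposited name of each array, read here as the slide. By that code no slide held both Cbt and control arrays at 24h or 36h, so those comparisons have no value within a slide. When slide was added to the model, 30 transcripts met the rule and 22 of them were among the 32. None of the 32 transcripts could be paired with a gene through the tables at hand, and they are named by the FlyBase transcript IDs of the files. For the same reason neither the wing identity of the samples nor the levels of Cabut, E2F1 and DP were checked here, and no sequences are shown.

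The 32 transcripts were one part of a larger response. Cbt wings held 793 transcripts at least 2-fold above control at 24h, 492 at 36h and 282 at both stages. Of the 250 raised at both stages that were left out, 212 were above control by 0.5 or more in E2F1DP wings at 1 or both stages, 66 were below it by as much, and 28 were counted in both ways. There were 111 transcripts raised at least 2-fold by both lines at both stages. At the threshold itself, FBtr0072313 (rises of 1.068 and 1.0 at 24h and 36h) and FBtr0073583 (1.654 and 1.002) lay just inside, and FBtr0072943 (0.979 and 1.178) and FBtr0076193 (1.706 and 0.975) just outside.

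**Figure D1:**
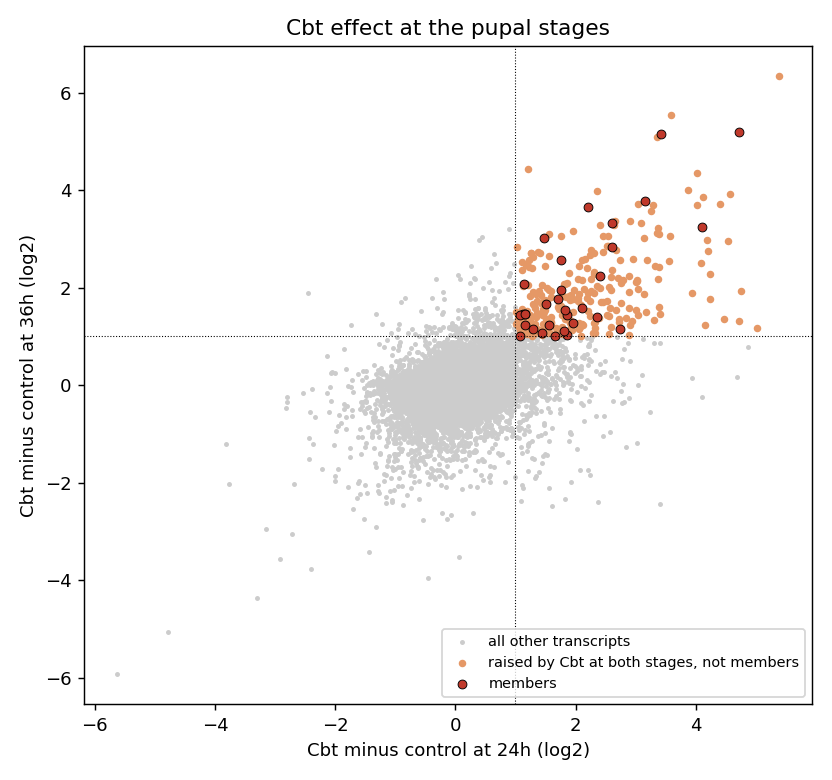
Each point is a transcript, placed by its log2 difference between Cbt and control at 24h (x axis) and at 36h (y axis). Dotted lines mark the 2-fold threshold of 1 on both axes. Red points are the 32 members, with rises of 1.07 to 4.71 at 24h and 1.0 to 5.2 at 36h, orange points are the 250 other transcripts raised at both stages, and grey points are the remaining transcripts.

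The rises were mostly modest and of similar size at the 2 pupal stages. The median rise was 1.78 at 24h and 1.5 at 36h on the log2 scale, beside -0.01 and -0.03 over all transcripts. At both stages 8 transcripts were raised at least 4-fold and 4 at least 8-fold. The rise was larger at 24h for 15 of the transcripts and larger at 36h for 17, and for 17 of them the rises differed by less than 0.5. Across the 32 transcripts the rises at 24h and 36h had a Pearson correlation of 0.76, given as a description since both were chosen to exceed 1.

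In the 4 Cbt arrays of 24h the median of the 32 transcripts lay 2.03, 1.99, 1.96 and 1.66 above the control mean, and at 36h it lay 1.75, 1.6, 1.58 and 1.82 above it. In each of these arrays 24 to 30 of the 32 were at least 2-fold above the control mean. In the E2F1DP arrays the same median ran from -0.08 to 0.13 at 24h and from -0.07 to 0.13 at 36h. In the control arrays it ran from -0.16 to 0.17 at 24h and from -0.16 to 0.04 at 36h.

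The pupal arrays were selected on, so how far they stood apart is given as a description and nothing is read from it. At 24h every Cbt array lay above every control array for 26 of the 32, a pattern found in 6.45% of all transcripts, and at 36h for 30 of the 32, against 7.13%. Cbt arrays lay entirely above E2F1DP arrays for 28 at 24h, against 12.0% of all transcripts, and for 29 at 36h, against 13.9%. Slide 9 held a Cbt and an E2F1DP array of 24h, and slide 7 held both lines at 36h. On these slides all 32 transcripts were higher in Cbt, by 0.11 to 4.88 at 24h (median 1.73, beside -0.02 for all transcripts) and by 0.78 to 6.21 at 36h (median 1.86, beside 0.03), a direction that the choice of members largely fixes.

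Membership depended on single arrays for many of them. When each of the 24 pupal arrays was left out in turn, 29 to 36 transcripts met the rule, and 9 of the 32 met it every time. Without the 2 arrays of 24h that stood apart, 26 transcripts met the rule and 22 of them were among the 32. In that setting 27 of the 32 still rose at least 2-fold at both stages and 5 of those left because E2F1DP no longer lay within 0.5 of control. Centring each array on its median left 20 members, all among the 32. A rise fell under 1 for 9 of the 32, whose lowest 24h rise was then 0.87, and 3 others left with both rises kept. After centring, the median difference between Cbt and control at 24h over all transcripts was -0.2.

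**Figure D2:**
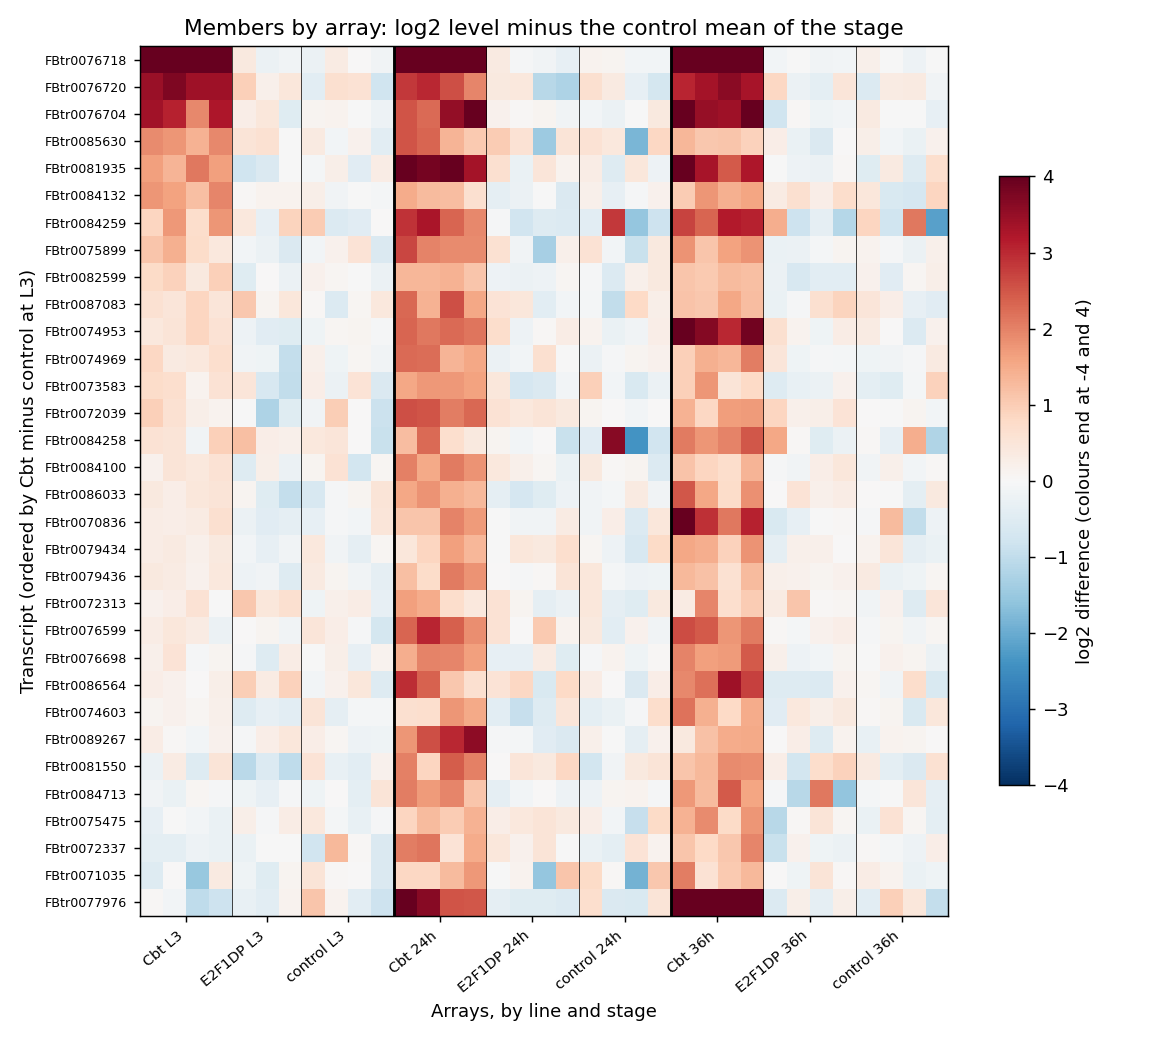
Rows are the 32 transcripts, ordered by their Cbt minus control difference at L3, and columns are the 35 arrays grouped by stage and line. Colour gives the log2 level minus the control mean of the same stage, from blue (below) to red (above), with the scale ending at -4 and 4. The Cbt columns of 24h and 36h are red in most rows and pale in some cells, and at L3 strong red is found in the top rows.

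As a group the transcripts had lower levels than most on the array, with bright exceptions such as FBtr0076720 and FBtr0074953. Their median control level was 6.82 at L3, 6.68 at 24h and 6.51 at 36h, beside 9.69, 9.61 and 9.68 over all transcripts. In Cbt wings the medians were 7.38, 8.56 and 8.5. A mean over all arrays below 6.20 marks the dimmest 25% of transcripts. In control wings 12 of the 32 lay under that level at 24h and 15 at 36h, 16 at one or both of these stages. No detection call was used, so the control level was not shown to be above background for any of the 32. For these 16, with the dimmest control levels, the size of the rise is inexact. The arrays carried 5 probes for 27 of the 32 and 4 probes for 5, where 65.3% of all transcripts had 5.

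FBtr0076718 had the largest rise of the 32 at both pupal stages and was among the dimmest transcripts in every wing without the Cabut transgene. At L3 it stood at 9.8, 9.26, 9.38 and 9.72 on the Cbt arrays, at 5.25, 4.63 and 4.71 on the E2F1DP arrays and at 4.6, 5.18, 4.88 and 4.72 on the control arrays. At 24h it stood at 9.23, 8.83, 9.98 and 9.74 in Cbt, against 5.1, 4.67, 4.59 and 4.4 in E2F1DP and 4.87, 4.83, 4.62 and 4.61 in control. At 36h it stood at 10.0, 9.41, 9.62 and 10.17 in Cbt, against 4.5, 4.59, 4.47 and 4.48 in E2F1DP and 4.8, 4.59, 4.41 and 4.58 in control. The Cbt arrays were far above all others at each stage, with differences from control of 4.69, 4.71 and 5.2 at L3, 24h and 36h. Its control means of 4.85, 4.73 and 4.60 all lie among the dimmest, so the corresponding 26.2-fold and 36.8-fold at 24h and 36h are not exact sizes.

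FBtr0076704 and FBtr0076720 behaved in the same way from higher starting levels. FBtr0076704 averaged 10.09 ± 0.67, 9.82 ± 0.96 and 10.74 ± 0.38 in Cbt at L3, 24h and 36h, against 7.20 ± 0.16, 6.66 ± 0.27 and 6.97 ± 0.29 in control (SD, n = 4). FBtr0076720 averaged 14.41 ± 0.17, 14.14 ± 0.46 and 13.61 ± 0.22 in Cbt, against 10.92 ± 0.72, 11.54 ± 0.61 and 10.28 ± 0.44 in control (SD, n = 4). No Cbt array of either transcript overlapped with a control array at any stage. FBtr0076720 was thus among the brighter transcripts of the array in every line and gained 6.08-fold at 24h and 10.1-fold at 36h in Cbt. In E2F1DP wings it averaged 11.46 ± 0.38 (SD, n = 3) at L3, and 11.16 ± 0.93 and 10.46 ± 0.58 (SD, n = 4) at 24h and 36h.

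FBtr0081935 stood above control at all 3 stages. Its Cbt arrays stood at 8.68, 8.4, 9.14 and 8.67 at L3, against 6.94, 7.26, 6.57 and 7.34 in control. At 24h they stood at 10.63, 9.96, 10.9 and 9.45, against 6.41, 5.59, 6.58 and 5.91 in control, and at 36h at 9.57, 8.84, 8.0 and 8.79, against 5.05, 5.91, 5.03 and 6.23. The groups did not overlap at any stage, and the difference was 1.70 at L3, 4.11 at 24h and 3.24 at 36h. The E2F1DP arrays of the transcript lay between 5.32 and 7.0 over the 3 stages.

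FBtr0077976 was not above control in larvae, and its rises differed most between the 2 pupal times, by 1.73. At L3 its Cbt arrays stood at 6.67, 6.51, 5.61 and 5.79, against 7.73, 6.77, 6.19 and 5.79 in control. At 24h they stood at 11.58, 10.16, 9.05 and 9.03, against 7.19, 5.94, 5.93 and 7.05, and at 36h at 10.24, 10.49, 11.96 and 12.08, against 5.62, 6.97, 6.47 and 5.07. The larval groups overlapped, and the pupal groups were far apart, by 10.8-fold at 24h and 35.7-fold at 36h on average, where the control mean of 36h (6.03) is among the dimmest. Without the 2 arrays that stood apart its rise at 24h was 3.23, but E2F1DP lay 0.67 below control and the transcript no longer met the rule.

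**Figure D3:**
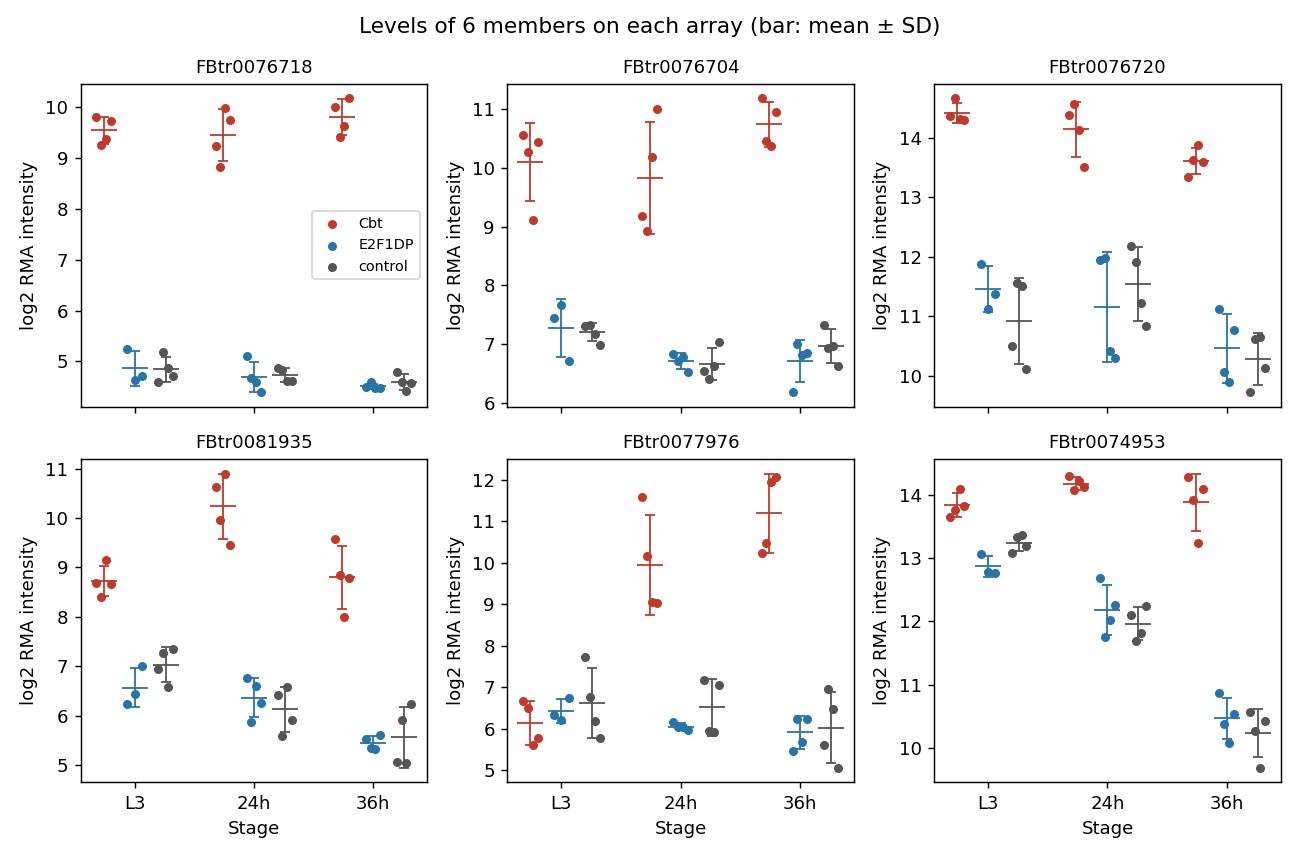
Log2 RMA intensity (y axis) of 6 members on each array at L3, 24h and 36h (x axis), with Cbt in red, E2F1DP in blue and control in grey from left to right within a stage, and bars for the mean and SD. Red points stand above the blue and grey ones at all stages in FBtr0076718, FBtr0076704, FBtr0076720 and FBtr0081935, and at the pupal stages only in FBtr0077976. In FBtr0074953 the grey and blue points drop with age while the red points stay between 13.24 and 14.3.

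Some members were neighbours in the numbering of the files. FBtr0084258 and FBtr0084259 differ by 1 in their number, FBtr0076718 and FBtr0076720 by 2, and FBtr0076698 and FBtr0076704 lie 20 and 14 below FBtr0076718. FBtr0079434 and FBtr0079436 differ by 2, FBtr0074953 and FBtr0074969 by 16, and FBtr0072313 and FBtr0072337 by 24. Whether such neighbours are transcripts of 1 gene or share probes is not given in the sources used here, so they may not be independent members. FBtr0076704 and FBtr0076718 had a correlation of 0.97 over the 35 arrays, which share the effect of the Cabut line, and of 0.58 between their deviations from the group means. FBtr0076718 and FBtr0076720 had 0.92 and 0.15, FBtr0079434 and FBtr0079436 had 0.89 and 0.45, and FBtr0074953 and FBtr0074969 had 0.84 and 0.03. FBtr0076698 was dim in control wings, at 4.91 ± 0.14 and 4.78 ± 0.19 at 24h and 36h, against 6.66 ± 0.25 and 6.72 ± 0.37 in Cbt (SD, n = 4).

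FBtr0084258 and FBtr0084259 had the widest spread between control arrays of 24h among the 32, with SDs of 2.57 and 1.94. Their deviations from the group means had a correlation of 0.84. FBtr0084258 stood at 8.59, 9.62, 8.01 and 7.73 on the Cbt arrays of 24h, against 6.89, 10.98, 4.95 and 6.57 on the control arrays. FBtr0084259 stood at 9.54, 9.91, 8.98 and 8.55 in Cbt, against 6.22, 9.47, 5.08 and 5.8 in control. Control replicate 2 lay within or above the Cbt range for both, so the groups overlapped. Without the arrays that stood apart the 24h rise was 0.34 for FBtr0084258, under the threshold of 1, and 2.08 for FBtr0084259. E2F1DP then lay 1.1 and 0.99 below control, and neither transcript met the rule.

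The members differed in the way their level changed with age. Classes with a threshold of 1 on the log2 scale were set after the values were seen and are a description. Cbt exceeded control at least 2-fold at L3 for 7 transcripts (21.9%, beside 0.782% of all transcripts). Of the others, 8 fell at least 2-fold in control wings from L3 to 36h. A further 9 stood in Cbt wings at 24h and 36h at least 2-fold above the larval control level, and 8 fitted none of these courses. Over all 32, the change in control wings from L3 to 36h had a median of -0.64, with 10 falling at least 2-fold (31.2%, beside 14.2% of all transcripts). Among the 111 transcripts raised by both lines the median was -4.48 and 97 fell as much. Control means of 24h and 36h enter both the rule and these changes, so the falls are not independent of the choice.

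For the 8 transcripts that fell in control, the Cbt level fell less or rose, as the rule and the larval class limit require. Their control levels changed by -3.97 to -1.0 from L3 to 36h, whereas the Cbt level of 36h was within 1 of the larval control level for 7 of the 8. Within Cbt wings the change from L3 to 36h ran from -2.01 to 0.45, with a median of -0.73, and 3 of the 8 fell at least 2-fold. At 24h Cbt wings were at least 2-fold above the larval control level for 3 of them. FBtr0074953, one of the brightest members, stood at 14.28, 13.92, 13.24 and 14.1 on the Cbt arrays of 36h, against 10.87, 10.38, 10.08 and 10.54 in E2F1DP and 10.57, 10.27, 9.69 and 10.42 in control. At L3 its means were 13.84 ± 0.19 (SD, n = 4) in Cbt, 12.88 ± 0.16 (SD, n = 3) in E2F1DP and 13.25 ± 0.13 (SD, n = 4) in control. Control and E2F1DP wings were thus both lower at 36h than at L3 while the Cbt ranges overlapped, and its difference from control was 2.21 at 24h and 3.65 at 36h. FBtr0070836 averaged 12.47 ± 0.44 and 11.22 ± 0.76 in Cbt at 24h and 36h, against 11.00 ± 0.44 and 8.20 ± 0.94 in control (SD, n = 4), from larval means of 12.56 and 12.17.

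The 9 transcripts of the pupal class had low larval levels, with larval control means of 4.8 to 6.62. In control wings 8 of them changed by less than 2-fold from L3 to 36h, and FBtr0087083 rose by 2.11. From L3 to 24h FBtr0087083 rose by 1.92 and FBtr0084258 by 1.24 in control wings. In Cbt wings the level of the 9 was 1.25 to 3.81 higher at 24h than at L3, with a median of 1.91, and 1.09 to 5.05 higher at 36h, with a median of 2.44. The class was set by these levels, which fixes the direction of both changes. FBtr0077976 and FBtr0076698 belong here, and so does FBtr0084713, whose rises of 1.7 and 1.75 at 24h and 36h differed least. On the Cbt arrays of 24h FBtr0084713 stood at 7.12, 6.77, 7.03 and 6.17, against 4.86, 5.17, 5.22 and 5.03 in control. At 36h it stood at 7.93, 7.49, 8.65 and 7.79, against 6.12, 6.19, 6.69 and 5.85. E2F1DP replicate 3 of 36h, at 8.32, reached the Cbt range, while the other 3 E2F1DP arrays lay between 4.64 and 6.15.

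**Figure D4:**
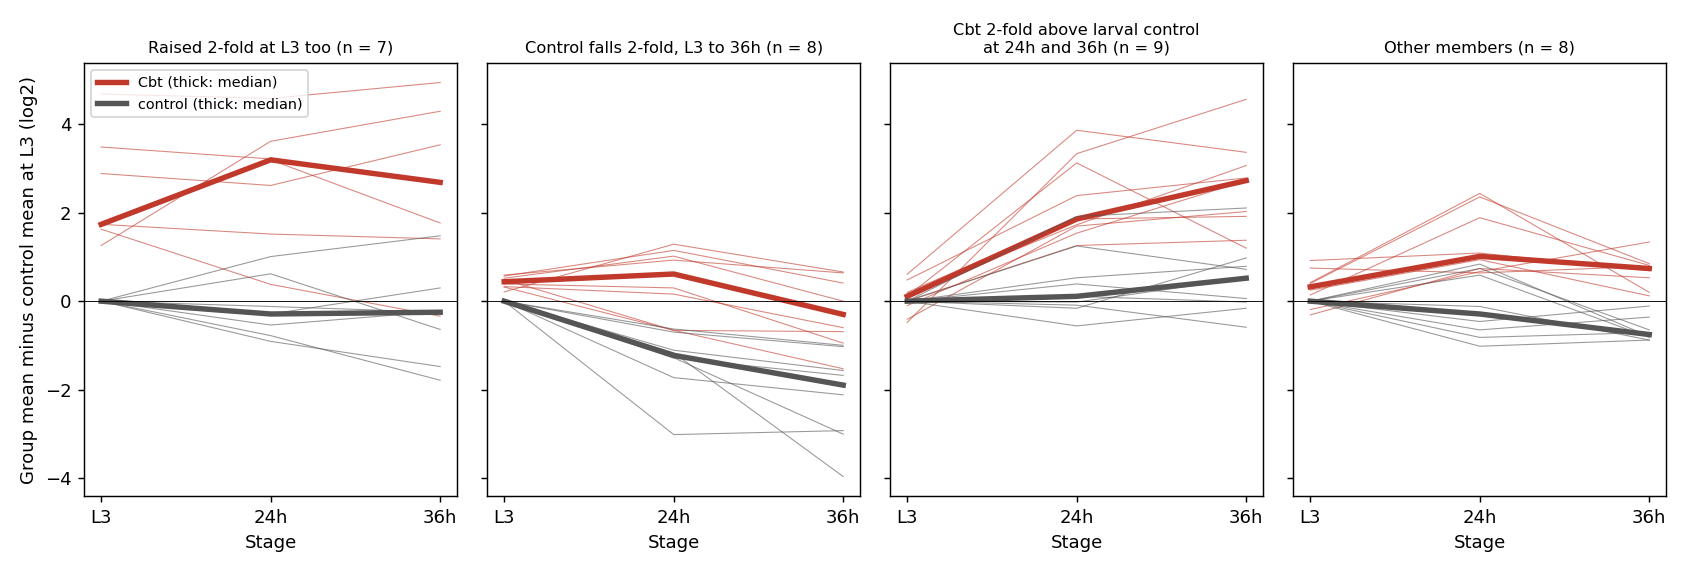
Group means of each member minus its control mean at L3 (y axis, log2) at the 3 stages (x axis), in 4 panels by course, with Cbt in red and control in grey, thin lines for single transcripts and thick lines for the median. In the second panel grey lines end between -3.97 and -1.0 at 36h. In the third, grey lines end between -0.59 and 2.11 at 36h, and red lines rise.

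The larval wings gave a comparison that the choice of members had not used. Fitted over all transcripts and 35 arrays, limma, a linear model with moderated variances, called at an adjusted p under 0.05 6 of the 32 higher in Cbt than in control at L3 (18.8%), where 0.504% of all transcripts were called higher. None of the 32 was called lower, against 0.265% of all transcripts, and none had an unadjusted p under 0.05 in that direction, against 3.68% of all. The difference was above 0 for 27 of the 32, against 7404 of all 15473 transcripts, with a median of 0.41 beside -0.01 over all. The Cbt arrays of L3 lay above all control arrays for 10 of the 32, against 4.18% of all transcripts. Of the 250 other transcripts raised at both pupal stages, 25 (10%) were called higher at L3, with a median difference of 0.09, and of the 111 raised by both lines, 2 were.

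Of the 4 transcripts raised at least 8-fold at both pupal stages, all but FBtr0077976 were called at L3, namely FBtr0076718, FBtr0076704 and FBtr0081935. FBtr0076718 was higher by 4.69 (SE 0.20, limma adjusted p = 6.83e-16), FBtr0076720 by 3.49 (SE 0.38, adjusted p = 7.87e-07) and FBtr0076704 by 2.89 (SE 0.33, adjusted p = 2.02e-06), each in 4 of 4 Cbt arrays above every control array. FBtr0081935 was higher by 1.70 (SE 0.32, adjusted p = 0.00378), a call that ended once slide was added to the model (1.65, adjusted p = 0.128). The other calls, named after their values were seen, were FBtr0084132 and FBtr0082599. FBtr0084132 stood at 9.38, 9.23, 8.83 and 9.56 in Cbt, against 7.66, 7.76 and 7.76 in E2F1DP and 7.86, 7.47, 7.61 and 7.55 in control, a difference of 1.63 from control (SE 0.25, adjusted p = 0.000258). Its pupal rises were 1.16 and 1.45.

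FBtr0082599 had the smallest larval change among the calls, at 9.26, 9.39, 8.86 and 9.44 in Cbt, against 8.65, 8.55, 8.46 and 8.25 in control. The groups did not overlap, and the difference of 0.76 (SE 0.17) had an adjusted p of 0.0195. The call ended without control replicate 3 or 4 or Cbt replicate 1, 2 or 4 of L3 (limma adjusted p = 0.0552 to 0.0988), with quantile normalisation (0.0526) and with only the arrays compared (0.0887). FBtr0085630 stood at 9.02, 8.88, 8.5 and 9.05 in Cbt, against 7.48, 7.01, 7.28 and 6.71 in control, and just missed the threshold at a difference of 1.74 (SE 0.44, limma adjusted p = 0.0562). It passed in 6 other settings, with adjusted p-values of 5.46e-05 with array weights, 0.000107 without the 2 arrays of 24h that stood apart, 0.0063 with only the arrays compared, 0.00873 with median centring, 0.00982 with the replicate block and 0.0497 without the dimmest 25% of transcripts. It missed with slide in the model (limma adjusted p = 0.219) and with quantile normalisation (0.0526). It also missed whichever single Cbt or control array of L3 was left out (0.0726 to 0.168). Its level of 5.01 in control replicate 3 of 24h lay far below the other control arrays of that stage. FBtr0084259, with a difference of 1.26, is the remaining transcript raised at least 2-fold in larvae, and its groups overlapped.

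Slide 1 held a Cbt and a control array of L3. On it 22 of the 32 transcripts were higher in Cbt, against 48.7% of all transcripts, with a median of 0.42 beside -0.01 over all. The differences were 4.65 for FBtr0076718, 4.16 for FBtr0076720, 2.96 for FBtr0076704, 1.46 for FBtr0081935, 1.37 for FBtr0084132 and 0.74 for FBtr0082599. The direction of these 6 was already given, since none of their Cbt and control arrays overlapped, and the slide adds only the sizes.

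Across the 32 transcripts the larval difference between Cbt and control had a Pearson correlation of 0.61 with the rise at 24h and 0.52 with that at 36h, as a description over members that include ID neighbours. For the 9 transcripts of the pupal class the larval difference ran from -0.48 to 0.61, and for the 8 that fell in control from 0.21 to 0.59. None of these 17 was called at L3 against control, but both classes by definition left out transcripts with a larval rise of at least 2-fold.

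**Figure D5:**
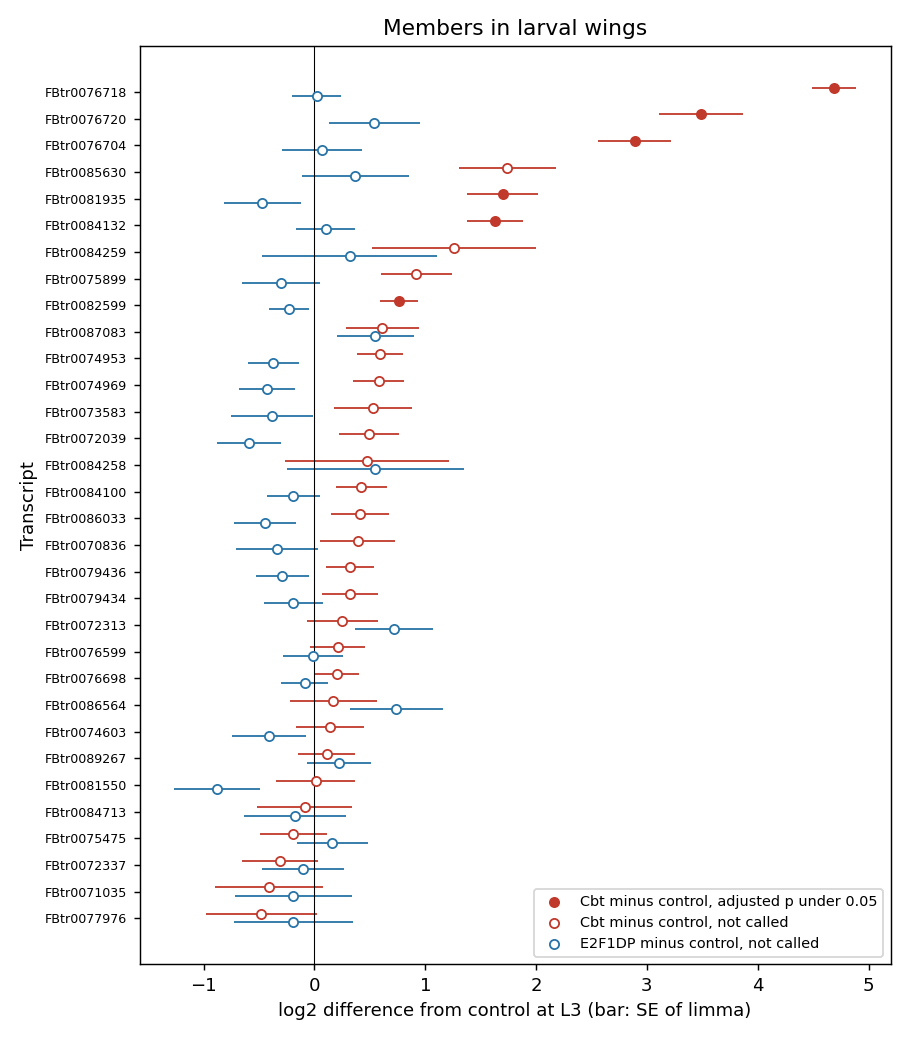
Log2 difference from control at L3 (x axis) of each of the 32 transcripts (y axis), with Cbt in red and E2F1DP in blue, bars for the SE of limma and filled points for an adjusted p under 0.05. The 6 filled red points lie between 0.76 and 4.69, and all blue points are open and lie between -0.88 and 0.74.

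None of the 32 was called in either direction between E2F1DP and control larval wings, where 0.452% of all transcripts were called higher and 0.407% lower than control with limma. At an unadjusted p under 0.05, 1 of the 32 was higher and 1 lower, against 3.85% and 4.47% of all transcripts. Their differences ran from -0.88 to 0.74, with a median of -0.18 beside -0.01 over all transcripts. The 8 transcripts that fell in control had E2F1DP differences of -0.59 to -0.01 at L3, none of them called.

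In the direct comparison at L3, Cbt was higher than E2F1DP for 9 of the 32 (28.1%), against 1.32% of all transcripts, and lower for none, against 0.743%, with none of the 32 at an unadjusted p under 0.05 in that direction, against 5.12% of all. The median difference was 0.67, beside 0.0 over all transcripts, and Cbt arrays lay above all E2F1DP arrays for 17, against 11.7% of all transcripts. The 6 transcripts called against control were called here too, led by FBtr0076718 at 4.68 (SE 0.22, limma adjusted p = 3.1e-15) and FBtr0076720 at 2.95 (SE 0.41, adjusted p = 2.1e-05). No slide held arrays of both lines at L3.

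The other 3 calls were of transcripts that fall with age in control wings. FBtr0074953 was higher in Cbt than in E2F1DP by 0.96 (SE 0.23, limma adjusted p = 0.0143), FBtr0074969 by 1.00 (SE 0.25, adjusted p = 0.0267) and FBtr0072039 by 1.08 (SE 0.29, adjusted p = 0.045). FBtr0072039 stood at 9.3, 8.94, 8.58 and 8.49 in Cbt and at 8.31, 7.09 and 7.84 in E2F1DP, between which the control arrays, at 8.19, 9.33, 8.35 and 7.49, overlapped with both. Each of the 3 calls ended without single arrays, without E2F1DP replicate 3 among them (0.0967, 0.329 and 0.124), and those of FBtr0074969 and FBtr0072039 also ended once slide was modelled (0.456 and 0.561) and with median centring (0.0757 and 0.0551). Leaving out E2F1DP replicate 3 lowered the count of calls from 9 to 6.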

How the data were processed

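Each of 35 one-colour arrays held total RNA of 10 wings. The authors deposited an RMA intensity per transcript and array, and a series table of the same values on the log2 scale, which differed from log2 of the intensities by at most 5e-09. RMA is named in the submitters' processing notes, and its settings, the arrays normalised together and the annotation are not given in the sources used here. Precision is limited by how many arrays a group had, and detection was not called.

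The rule was applied to group means of the log2 table (Python 3.11.15, pandas 2.3.3, numpy 2.4.6). limma 3.58.1 in R 4.3.3 fitted 9 group means to all arrays (26 residual and 2.86 prior degrees of freedom), after a test of the script on simulated data, with Benjamini-Hochberg adjustment over the 15473 transcripts and a threshold of 0.05. Figures used matplotlib 3.10.9. Transcript IDs were looked up in the RefSeq gene table of Release 6, where 44 of all IDs and 0 of the 32 members appeared, so none of the 103 entries of 8 gene lists and 28 cell type markers could be used.

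Members, lists and tests were chosen with earlier results of these data known. The transcripts named are the 6 with the largest smaller rise, up to 4 each way among larval calls, the pair nearest the threshold on each side, those whose rises differed most and least, and 9 added after their values were seen. FBtr0072337, FBtr0079434 and FBtr0079436 were named only as ID neighbours. Alternatives were other scalings, slide, replicate number or array weights in the model, fewer arrays or transcripts, the per-array files and group medians. Same-numbered E2F1DP and control arrays of 24h deviated together (correlations of 0.31, 0.32, 0.73 and 0.46), so the numbers may pair them. In the main fit each p-value sets a larval difference against the spread of arrays within groups, pooled over all 9 groups and moderated.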

Additional observations from a re-analysis of the deposited data

Results flagged for a closer look

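The members named, other than those named only as ID neighbours, were 18. Among their 144 sets of 4 arrays, 4 had 1 array far from the other 3, by Dixon's gap over range at the 95% level, where chance gives about 1 in 20. FBtr0085630 stood at 5.01 in control replicate 3 of 24h, against 7.24 to 7.65 on the other control arrays. FBtr0074969 stood at 5.42 in E2F1DP replicate 1 of 36h, against 4.76 to 4.87. FBtr0082599 was set apart in replicate 4 of both Cbt at 24h (8.94, against 9.16 to 9.21) and E2F1DP at 24h (7.92, against 7.59 to 7.63).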

How the results depend on the processing

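The number of members was 20 with each array centred on its median, against 32. Members higher in Cbt than in E2F1DP at L3 numbered 19 with array weights and 14 with only the arrays compared, against 9, while calls over all transcripts in either direction numbered 2089 and 1143, against 320, and their median difference was 0.90 without the dimmest 25% of transcripts, against 0.67. The causes were not tested. Leaving out 1 array gave 29 to 36 members, 5 to 6 larval calls against control and 6 to 9 against E2F1DP. The larval difference of FBtr0084713 from control, -0.09, became 0.08 without control replicate 4 and lay between -0.22 and 0.08 without single arrays. Of 34 same-numbered pairs, 18 had a correlation of deviations over 0.1, with a range of -0.36 to 0.73. In no comparison at L3 or 36h, nor in those of Cbt at 24h, did every pair exceed 0.1. With the replicate block the larval calls were 7 against control and 10 against E2F1DP, and membership by the rule stayed at 32. The slide term, the block for the rule and the larval fits without the 2 arrays of 24h were added after seeing the data.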
